A study of Rattus norvegicus with 12 samples.

Results

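The genes of cholesterol synthesis and its regulation were examined in RNA from rat dorsal root ganglia, which lie along the spinal cord and hold the cell bodies of sensory neurons. The set holds 32 genes chosen by symbol, of 20152 genes listed over the series: 20 enzymes of the mevalonate and sterol steps, 5 genes of SREBP control, 3 of intracellular sterol transfer and 4 of the LXR receptors and cholesterol export. All 32 were listed in every library and all 32 were tested, so none was lost to the filter on low counts. The series asks how 2 chemotherapy drugs that cause painful neuropathy differ in this tissue.

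Oxaliplatin, a DNA-crosslinking platinum drug, was given at 2.4 mg/kg (4 libraries), and paclitaxel, which stabilises microtubules, at 2.0 mg/kg (4 libraries), beside 4 vehicle libraries. Both drugs went into the peritoneal cavity. Oxaliplatin was in glucose solution and paclitaxel in DMSO thinned with saline, while the labels name a single vehicle group and not its solvent, so drug and solvent cannot be told apart. The labels give no strain, sex, age, dosing schedule or hour of collection, and do not say that replicates came from separate animals, so the p-values rest on the spread of these samples only, and that spread may be technical. Values per library are CPM (counts scaled to library size with edgeR's TMM factors), levels compared between genes are FPKM (scaled to transcript length as well), and differences are log2 fold changes ± standard error. Calls were made in edgeR by its quasi-likelihood test, at a Benjamini-Hochberg adjusted p under 0.05 over the 15809 genes tested.

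Estimated counts summed to 17008728 to 17615736 per library, so depth was nearly even. All 16 neuron markers and all 14 markers of myelinating Schwann cells were present in every library, as were the satellite glia markers. Of the markers of other cells, Lep of the adipocyte list and Hba-a1 of the erythroid list were at 0 in some libraries. Over all genes, 278 were called for oxaliplatin against vehicle, 19 for paclitaxel against vehicle and 1788 for oxaliplatin against paclitaxel. Both comparisons with vehicle share the same 4 vehicle libraries.

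Cholesterol is built from acetyl-CoA through mevalonate, isoprenoid pyrophosphates, squalene and lanosterol. When membrane sterol is low, Scap escorts the SREBP transcription factors out of the endoplasmic reticulum and they switch on nearly every enzyme of the route, while the Insig proteins hold Scap back when sterol is high. LXR receptors sense oxidised sterols and drive export. In peripheral nerve, Schwann cells need large amounts of cholesterol for myelin and make much of it themselves, and neurons also take up sterol from glia.

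Promoters of the members were read for the elements that SREBP, its partner factors and LXR are known to bind. RefSeq windows of assembly GRCr8, running from 250 bases before to 50 bases after the transcription start, were matched by gene ID for 27 of the 32 members. Those unmatched were Pmvk, Fdft1, Sqle, Stard4 and Abcg1. The upstream 250 bases of 5 members are given. Acat2 was called lower with oxaliplatin against vehicle and against paclitaxel, and Mvd against paclitaxel only. Insig1 and Nsdhl were among the members that did not overlap between oxaliplatin and vehicle, and Hmgcs1 was the most abundant member with vehicle. Capitals mark the letters CCAAT, or ATTGG on the other strand, the core of the box bound by NF-Y, a factor that works together with SREBP.
Acat2, chr1:50100590-50100839, plus strand: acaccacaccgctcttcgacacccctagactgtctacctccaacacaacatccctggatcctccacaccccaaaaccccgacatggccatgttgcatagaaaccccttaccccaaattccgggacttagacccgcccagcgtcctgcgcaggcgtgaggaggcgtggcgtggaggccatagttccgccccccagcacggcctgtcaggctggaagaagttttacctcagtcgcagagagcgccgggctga
Hmgcs1, chr2:53382054-53382303, plus strand: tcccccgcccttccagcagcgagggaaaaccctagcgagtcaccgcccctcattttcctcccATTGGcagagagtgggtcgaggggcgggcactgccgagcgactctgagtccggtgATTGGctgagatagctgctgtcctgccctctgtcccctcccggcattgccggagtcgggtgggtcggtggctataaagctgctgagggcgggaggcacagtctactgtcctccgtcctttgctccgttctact
Mvd, chr19:67414975-67415224, minus strand: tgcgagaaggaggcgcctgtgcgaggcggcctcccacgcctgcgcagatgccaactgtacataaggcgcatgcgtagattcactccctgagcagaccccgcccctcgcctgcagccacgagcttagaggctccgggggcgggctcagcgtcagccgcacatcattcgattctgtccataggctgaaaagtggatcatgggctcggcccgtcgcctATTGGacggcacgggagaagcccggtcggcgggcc
Nsdhl, chrX:155817110-155817359, plus strand: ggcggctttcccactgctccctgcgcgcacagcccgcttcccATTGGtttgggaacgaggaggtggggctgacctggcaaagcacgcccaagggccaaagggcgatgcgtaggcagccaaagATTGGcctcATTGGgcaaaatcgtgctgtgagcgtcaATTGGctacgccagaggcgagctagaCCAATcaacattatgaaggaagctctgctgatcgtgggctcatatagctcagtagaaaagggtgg
Insig1, chr4:8057770-8058019, minus strand: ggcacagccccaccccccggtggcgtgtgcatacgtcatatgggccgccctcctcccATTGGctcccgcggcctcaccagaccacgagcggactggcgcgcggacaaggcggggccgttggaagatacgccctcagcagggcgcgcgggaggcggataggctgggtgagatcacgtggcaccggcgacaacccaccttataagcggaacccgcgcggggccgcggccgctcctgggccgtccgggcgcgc
Hmgcs1 held NF-Y letters at bases -188 to -184 and -133 to -129 from the start, Insig1 at -193 to -189 and Mvd at -35 to -31. Nsdhl held them at more places than any other sequence shown here, and the Acat2 window held none. Of further members that did not overlap between oxaliplatin and vehicle, Tm7sf2, Sc5d and Insig2 held these letters and Cyp51 and Dhcr7 did not. Searched on both strands, CCAAT was in 19 of the 27 members' windows (70.4%), against 37.7% of all 27457 windows and 37.2% of the 12194 windows of tested genes. The GC box GGGCGG, a binding motif of Sp1-type factors, was in 21 of 27 (77.8%), against 34.9% of all windows and 59.1% of those of tested genes. The letters of a classical sterol regulatory element, TCACNCCAC, were in 0 of 27 members' windows and in 1.13% of all windows, and the LXR element, a pair of strict AGGTCA half-sites in direct repeat, was in 0 of 27 and in 0.00364% of all. The motifs are short or strict strings of letters, and a match or its absence here describes the letters only.

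In vehicle libraries the members spanned a wide range of levels per length. Hmgcs1, the cytosolic synthase that makes HMG-CoA, led at 304 ± 14.7 FPKM (SD, n = 4), followed by Fdps, farnesyl pyrophosphate synthase, at 289 ± 8.48 FPKM. Npc2, a soluble lysosomal sterol carrier, came next at 174 ± 8.95 FPKM and Cyp51, the lanosterol demethylase, at 163 ± 12.7 FPKM. At the low end were Hsd17b7, a ketosteroid reductase of the late route, at 10.5 ± 1.58 FPKM, Nr1h3, the receptor LXR alpha, at 9.12 ± 2.05 FPKM, and Npc1, the membrane partner of Npc2 in lysosomal export, at 8.39 ± 0.306 FPKM. Of the 31 neighbouring pairs in this order, 24 had overlapping ranges over the vehicle libraries. Hmgcs1 and Fdps were such a pair, while Fdps lay apart from Npc2. Overlap of ranges is not a test, and the difference within a pair was not tested library by library.

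**Figure D1:**
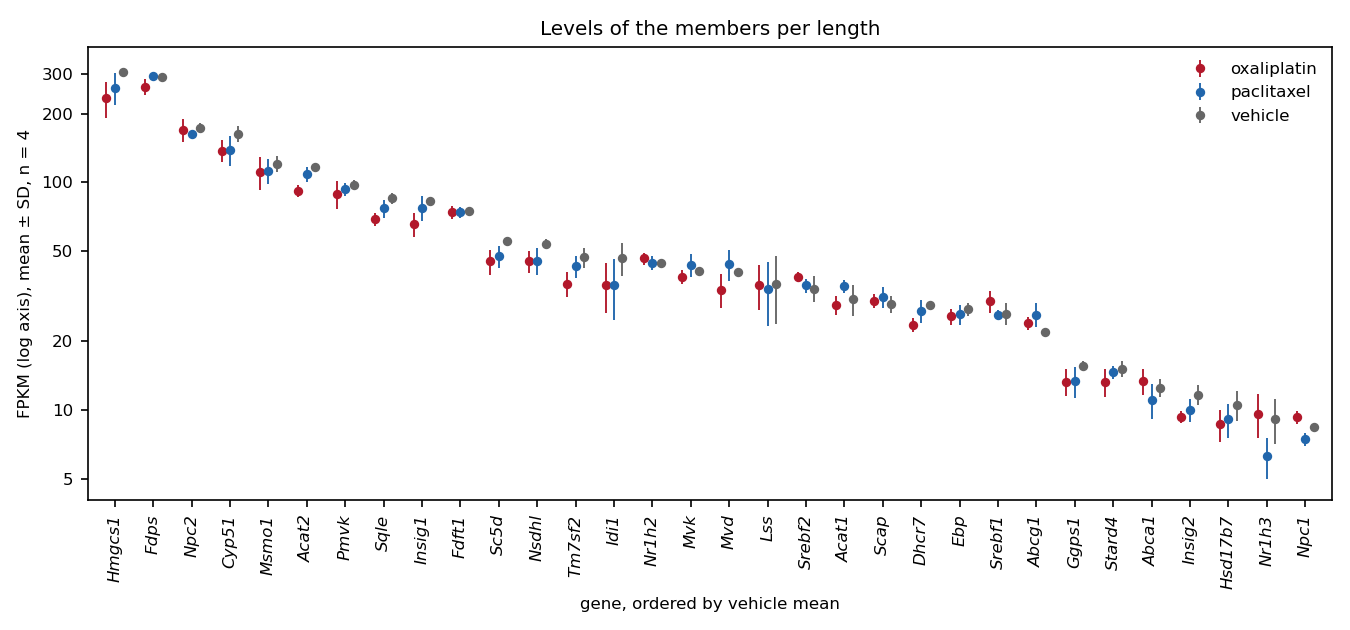
Mean FPKM of the 32 members on a log axis, with SD over 4 libraries, in oxaliplatin, paclitaxel and vehicle libraries, ordered by the vehicle mean. Levels run from 304 FPKM for Hmgcs1 to 8.39 FPKM for Npc1 in vehicle. The ends of the order differ with the drugs. The mean of Fdps lies above that of Hmgcs1 with oxaliplatin and with paclitaxel. The lowest mean is that of Hsd17b7 with oxaliplatin (8.65 FPKM) and of Nr1h3 with paclitaxel (6.26 FPKM).

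With oxaliplatin, all 20 enzymes of cholesterol synthesis had a lower mean fitted level than with vehicle, and 2 of them passed the test: Acat2, the cytosolic thiolase that joins acetyl-CoA units at the start of the route, and Sqle, squalene epoxidase, the first oxygen-using step. Acat2 fell by 0.38 ± 0.08 and Sqle by 0.34 ± 0.08 on the log2 scale, or -23.4% and -20.9% relative to vehicle. Of the 32 members 2 were called lower and 0 higher, where 0.708% of all genes tested were called lower and 1.05% higher (1.76% in either direction). At an unadjusted p under 0.05, 15 members were lower and 0 higher, beside 8.06% and 9.18% of all genes. The median log2 fold change was -0.17 over the members and 0.01 over all genes tested. DESeq2 called 6 members lower (Hmgcs1, Insig1, Sc5d and Tm7sf2 beside these), and limma on log2(FPKM + 1) called 1, Acat2. Over the whole table these fits called 453 and 70 genes lower. RNA of a whole ganglion was measured, so fewer cells of a type and less RNA per cell cannot be told apart. That this pathway as a list lay lower with oxaliplatin was known from an earlier reading of these data when the members were chosen, and the counts are not independent evidence of it.

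Acat2 (gene ID 308100) had 196, 191, 182 and 166 CPM in oxaliplatin libraries 1 to 4, 237, 204, 243 and 236 CPM in paclitaxel libraries, and 232, 242, 235 and 250 CPM in vehicle libraries. Every oxaliplatin library lay below every library of both other groups. The adjusted p against vehicle was 0.0293 (edgeR). Its count was fractional in 12 of 12 libraries, so reads may be divided with another gene, and its locus overlaps LOC102553528 in the GRCr8 annotation, so its value is uncertain. The call was lost without vehicle 1, 2 or 4 or without oxaliplatin 3 or 4 (adjusted p = 0.0614, 0.0795, 0.107, 0.0727 and 0.0534, edgeR).

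Sqle (29230) had 146, 149, 140 and 126 CPM in oxaliplatin libraries, 159, 156, 163 and 182 CPM in paclitaxel libraries, and 172, 194, 167 and 176 CPM in vehicle libraries. The oxaliplatin libraries again lay below all others, while paclitaxel and vehicle overlapped. The adjusted p against vehicle was 0.049 (edgeR), close to the threshold. It passed only without paclitaxel 4 among the 12 fits that each left out a library (the other 11 gave adjusted p-values of 0.0524 to 0.14).

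Among the other enzymes of the mevalonate steps, all had a log2 fold change below 0 against vehicle without passing. Hmgcs1 had 692, 966, 819 and 663 CPM with oxaliplatin, 806, 846, 931 and 1083 CPM with paclitaxel, and 1071, 1081, 966 and 1053 CPM with vehicle. Oxaliplatin 2 reached the lowest vehicle library and the other oxaliplatin libraries lay below all of vehicle (-0.41 ± 0.12, adjusted p = 0.109, edgeR). Idi1, which isomerises isopentenyl pyrophosphate, had -0.42 ± 0.21 (adjusted p = 0.314), and it varied widely within groups, from 67.4 to 126 CPM with oxaliplatin, 75.4 to 142 CPM with paclitaxel and 113 to 165 CPM with vehicle. Ggps1, which makes the geranylgeranyl pyrophosphate used to anchor small GTPases, had -0.29 ± 0.11, Mvd, the decarboxylase that makes isopentenyl pyrophosphate, -0.28 ± 0.13, and Fdps -0.17 ± 0.08. The kinases Mvk and Pmvk had -0.12 ± 0.10 and -0.16 ± 0.10, and Acat1, the mitochondrial thiolase shared with ketone body metabolism, -0.12 ± 0.11. The median over all 9 mevalonate genes, Acat2 among them, was -0.28. Ggps1 and Idi1 are uncertain, with estimated counts that were not whole in 12 and 9 libraries. Idi1 also overlaps Wdr37 in the GRCr8 annotation.

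From squalene to cholesterol, 6 of 11 enzymes had all oxaliplatin libraries below all vehicle libraries, beside 5.76% of all genes tested: Sqle, Cyp51, Tm7sf2, Nsdhl, Sc5d and Dhcr7. Tm7sf2, the sterol reductase after the Cyp51 step, had 52.6, 55.3, 58.6 and 43.1 CPM with oxaliplatin, 71.4, 54.7, 71.5 and 67.2 CPM with paclitaxel, and 61.2, 79.6, 71.5 and 68.1 CPM with vehicle. Its log2 fold change was -0.42 ± 0.11 (adjusted p = 0.0828, edgeR). Sc5d, a desaturase of the last steps, had 171, 198, 184 and 164 CPM with oxaliplatin, 176, 191, 204 and 217 CPM with paclitaxel, and 224, 229, 204 and 219 CPM with vehicle. Here the fold change was -0.29 ± 0.08 (adjusted p = 0.104), and Sc5d is uncertain because its count was not whole in 12 libraries. Neither gene passed the test.

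Dhcr7, the reductase that yields cholesterol itself, had -0.27 ± 0.09 against vehicle, Nsdhl, a dehydrogenase that helps strip methyl groups from the sterol ring, -0.28 ± 0.10, and Cyp51 -0.28 ± 0.11 (adjusted p = 0.142, 0.194 and 0.215, edgeR). Hsd17b7, which works with Nsdhl, had -0.32 ± 0.11 and is uncertain, with a count that was not whole in 9 libraries. Msmo1, the methyl sterol oxidase, and Ebp, a sterol isomerase, had -0.15 ± 0.12 and -0.13 ± 0.10. Fdft1, squalene synthase, which commits farnesyl pyrophosphate to sterols, stood nearest 0 at -0.04 ± 0.08. Its levels were 252, 237, 224 and 211 CPM with oxaliplatin, 271, 228, 241 and 236 CPM with paclitaxel, and 227, 239, 231 and 253 CPM with vehicle, which overlap throughout.

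Lss, lanosterol synthase, which closes the sterol rings, was unlike its neighbours in the route. It had 103, 111, 116 and 67.0 CPM with oxaliplatin, 73.0, 122, 77.1 and 127 CPM with paclitaxel, and 76.4, 129, 69.1 and 135 CPM with vehicle. High and low libraries occurred in all 3 groups, with no library between 77.1 and 103 CPM. Its coefficient of variation within groups, 28.6%, was the widest of the members, whose median was 9.5%. Its log2 fold change against vehicle was -0.05 ± 0.27, with a standard error well above the 0.08 of Sqle.

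All 20 enzymes had a log2 fold change below 0 for oxaliplatin against vehicle, beside 48.3% of all genes, and their median was -0.28. Over the members, 9 had all oxaliplatin libraries below all vehicle libraries and 0 had them all above, where 5.76% and 5.54% of all genes did. Beside 7 of the enzymes these 9 hold Insig1 and Insig2. Enzymes of the route tend to be co-regulated, so they are not independent replicates of one another. The mean log2 CPM of the enzymes, taken relative to vehicle, was -0.19, -0.13, -0.22 and -0.46 in oxaliplatin libraries 1 to 4, -0.09, -0.15, -0.05 and 0.04 in paclitaxel libraries, and -0.05, 0.12, -0.10 and 0.02 in vehicle libraries. Oxaliplatin 4 was the lowest library, with all 20 enzymes below the vehicle mean and 19 below every vehicle library. In oxaliplatin 1, 2 and 3, 11, 10 and 17 enzymes lay below every vehicle library. In paclitaxel 1 to 4 these numbers were 9, 15, 6 and 2. Without oxaliplatin 4, 19 of 20 enzymes still had a fold change below 0, with a median of -0.22. Lss was the only enzyme whose fold change turned positive in any of the 21 other fits run.

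The genes that control the route had no common direction with oxaliplatin. Insig1, a sterol-sensing anchor and itself a well-known SREBP target, had 149, 175, 163 and 131 CPM with oxaliplatin, 186, 165, 216 and 204 CPM with paclitaxel, and 206, 197, 190 and 207 CPM with vehicle. All oxaliplatin libraries lay below vehicle, and the log2 fold change of -0.37 ± 0.10 did not pass (adjusted p = 0.078, edgeR). Insig2, its relative that is less dependent on SREBP, had 20.1 to 23.6 CPM with oxaliplatin, 19.4 to 24.9 CPM with paclitaxel and 24.4 to 25.0 CPM with vehicle (-0.21 ± 0.09, with a count that was not whole in 11 libraries).

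Srebf1 and Srebf2, which encode the SREBP transcription factors, had positive fold changes against vehicle of 0.16 ± 0.09 and 0.14 ± 0.10, and Scap had 0.00 ± 0.09, none past the threshold (adjusted p = 0.42, 0.503 and 0.987, edgeR). Srebf2, the main factor for sterol genes, had 193, 180, 194 and 199 CPM with oxaliplatin, 205, 178, 196 and 166 CPM with paclitaxel, and 187, 145, 193 and 174 CPM with vehicle, and the groups overlapped. Transcript levels say nothing of how much of these factors was cleaved and active, which was not measured. Srebf1 is uncertain, with a count that was not whole in 12 libraries, and it overlaps Rai1 in the GRCr8 annotation.

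In sterol transfer, Stard4, a carrier that moves cholesterol to the endoplasmic reticulum, had -0.22 ± 0.09, Npc2 -0.07 ± 0.09 and Npc1 0.11 ± 0.07 for oxaliplatin against vehicle. The LXR receptors Nr1h2 and Nr1h3 and the exporters Abca1 and Abcg1 lay between 0.03 and 0.07. None of these 7 passed (adjusted p from 0.214 to 0.951, edgeR). The members with fold changes above 0 were thus the SREBP factors, Scap, Npc1 and the genes of LXR and export, of which Scap, Abca1, Nr1h2 and Nr1h3 changed sign in at least 1 other fit.

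**Figure D2:**
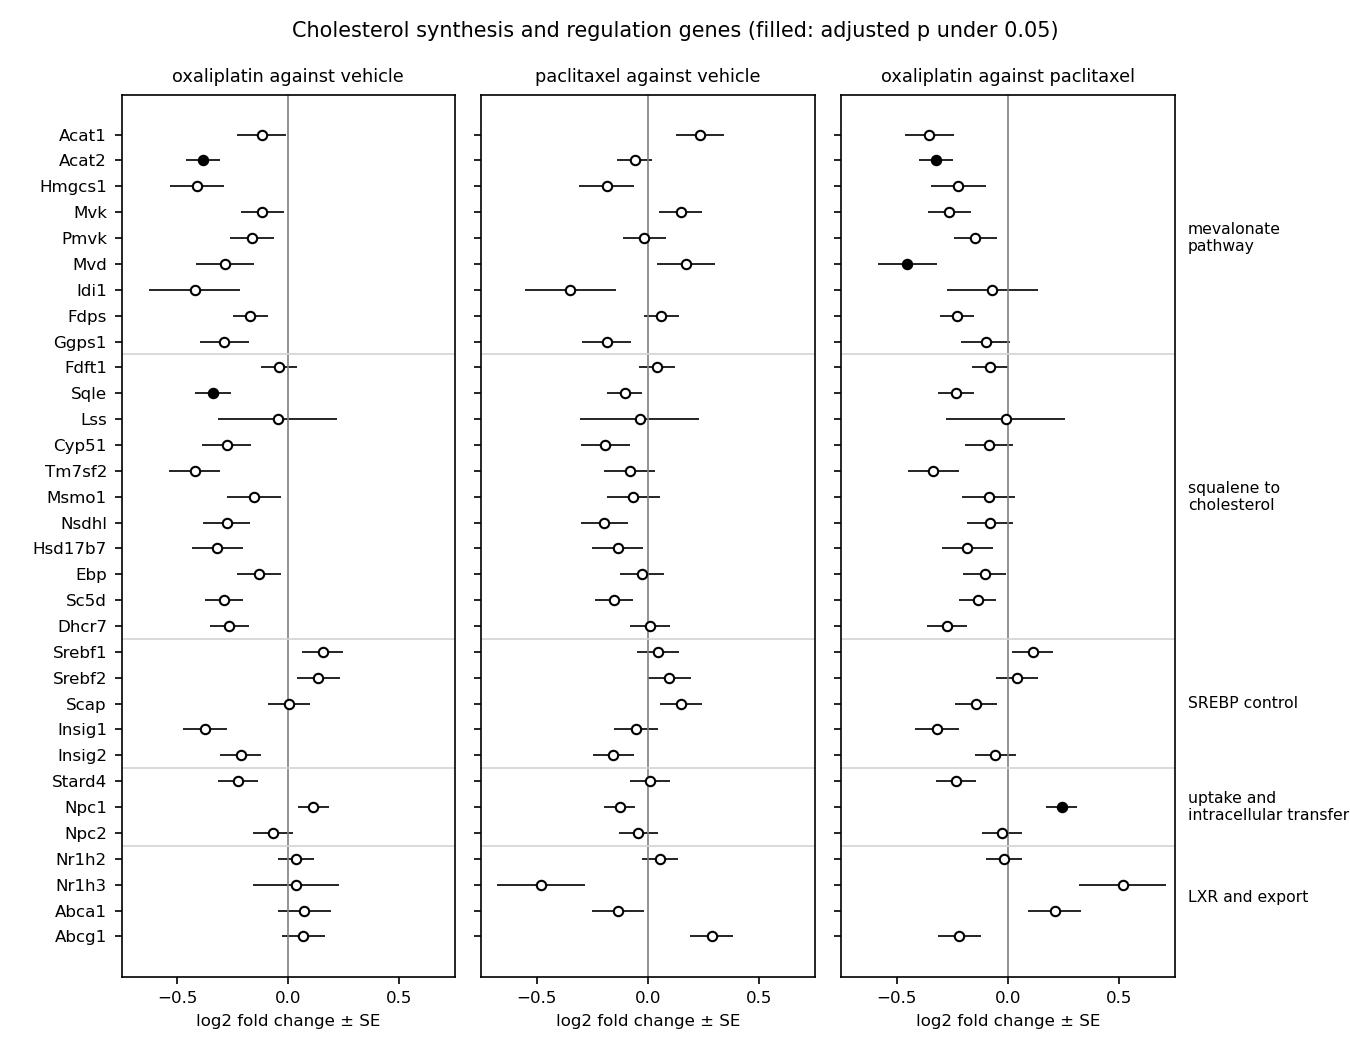
Log2 fold change ± standard error of each member in the 3 comparisons, with filled points for an adjusted p under 0.05. In the oxaliplatin against vehicle panel all 20 enzymes lie left of 0 and Acat2 and Sqle are filled, no point is filled for paclitaxel against vehicle, and Acat2, Mvd and Npc1 are filled for oxaliplatin against paclitaxel.

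With paclitaxel, none of the 32 members passed the test against vehicle, beside 0.12% of all genes called in either direction (0.0822% higher and 0.038% lower). DESeq2 called 0 as well, while limma voom with quality weights called Abcg1 and Acat1 higher and Cyp51 lower. Over the whole table limma voom called 1055 genes higher and 836 lower, far more than edgeR did. At an unadjusted p under 0.05 in edgeR, 2 members were higher and 1 lower, beside 9.18% and 7.88% of all genes. The median log2 fold change over members was -0.05, against -0.01 over all genes, and no member had all its paclitaxel libraries above or below vehicle, beside 3.88% and 3.08% of all genes. Of the 20 enzymes 14 had a fold change below 0, where 52.1% of all genes did.

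The members nearest the threshold with paclitaxel were spread over the roles. Abcg1, which loads cholesterol onto high-density lipoprotein, had 107, 95.8, 99.5 and 112 CPM with oxaliplatin, 138, 116, 129 and 99.0 CPM with paclitaxel, and 96.0, 93.1, 104 and 102 CPM with vehicle. Paclitaxel 1, 2 and 3 lay above all vehicle libraries and paclitaxel 4 among them (0.29 ± 0.10, adjusted p = 0.22, edgeR). Without paclitaxel 4 it passed (adjusted p = 0.0272), in a fit that also called 921 genes higher over the whole table. Nr1h3 had 16.8, 18.6, 18.0 and 10.9 CPM with oxaliplatin, 9.74, 10.1, 10.4 and 14.7 CPM with paclitaxel, and 14.3, 20.6, 15.8 and 12.1 CPM with vehicle. Again paclitaxel 4 stood apart from the other paclitaxel libraries, and the fold change of -0.48 ± 0.20 did not pass (adjusted p = 0.255). Nr1h3 overlaps Acp2 in the GRCr8 annotation, and the strand used for counting is not stated.

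Acat1 had 58.6, 61.0, 69.2 and 57.9 CPM with oxaliplatin, 77.5, 86.0, 77.8 and 73.9 CPM with paclitaxel, and 58.9, 76.5, 56.0 and 76.6 CPM with vehicle. Its vehicle libraries split into a low and a high pair, and paclitaxel overlapped the high pair (0.23 ± 0.11, adjusted p = 0.291, edgeR). Nsdhl had 96.4, 107, 96.8 and 77.1 CPM with oxaliplatin, 92.4, 91.8, 98.3 and 117 CPM with paclitaxel, and 115, 124, 108 and 111 CPM with vehicle. Paclitaxel 1, 2 and 3 lay below all vehicle libraries, and paclitaxel 4 did not (-0.20 ± 0.10, adjusted p = 0.333). Npc1 and Sc5d had -0.13 ± 0.07 and -0.15 ± 0.08 (adjusted p = 0.345 and 0.351). Acat2, Sqle and Insig1 had -0.06 ± 0.08, -0.10 ± 0.08 and -0.05 ± 0.10 with paclitaxel against the same vehicle libraries.

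Between the drugs, 2 members were lower with oxaliplatin than with paclitaxel, Acat2 and Mvd, and 1 was higher, Npc1, where 4.71% of all genes were called lower and 6.6% higher. These shares of the members, 2 and 1 of 32, are near the background. Acat2 was lower by a log2 fold change of -0.32 ± 0.08 (adjusted p = 0.022, edgeR), a call lost without paclitaxel 1 or 3 or oxaliplatin 3 (adjusted p = 0.0512, 0.0716 and 0.0608). At an unadjusted p under 0.05, 11 members were lower and 2 higher, beside 13.8% and 15.6% of all genes. The median was -0.12 over members and 0.00 over all genes. DESeq2 called 10 members lower and limma voom 6, and limma on log2(FPKM + 1) called 1. Over the whole table these fits called 1454, 2296 and 282 genes lower.

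Mvd had 71.0, 53.4, 48.0 and 51.7 CPM with oxaliplatin, 92.5, 64.7, 83.5 and 65.9 CPM with paclitaxel, and 67.5, 70.2, 67.6 and 67.3 CPM with vehicle. Both drug groups spread far more widely than vehicle, and oxaliplatin 1 lay above paclitaxel 2 and 4, so the groups overlap. The log2 fold change was -0.45 ± 0.13 (adjusted p = 0.0412, edgeR). It was no longer called without any 1 vehicle library (0.0507 to 0.0573), without paclitaxel 1 or 3 (0.119 each) or without oxaliplatin 2, 3 or 4 (0.0994, 0.119 and 0.065).

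Npc1 had 46.1, 47.2, 51.1 and 44.8 CPM with oxaliplatin, 38.3, 39.7, 39.8 and 42.2 CPM with paclitaxel, and 45.2, 44.8, 42.7 and 42.0 CPM with vehicle. Every oxaliplatin library was above every paclitaxel library, with vehicle between them. The log2 fold change was 0.24 ± 0.07 (adjusted p = 0.0406, edgeR), and the call held only when paclitaxel 4 or oxaliplatin 4 was the library left out (the other 10 fits gave adjusted p-values of 0.0506 to 0.144). Its count was not whole in 12 libraries and it overlaps Rmc1 in the GRCr8 annotation, so it is uncertain.

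Acat1, Insig1 and Dhcr7 came next, lower with oxaliplatin than with paclitaxel by -0.35 ± 0.11, -0.32 ± 0.10 and -0.27 ± 0.09 without passing (adjusted p = 0.0511, 0.0544 and 0.0591, edgeR). Dhcr7 had 64.1, 55.8, 58.1 and 58.5 CPM with oxaliplatin, 82.8, 61.3, 72.5 and 69.4 CPM with paclitaxel, and 71.5, 74.9, 68.7 and 69.0 CPM with vehicle, and only paclitaxel 2 lay within the oxaliplatin range. All libraries of the drugs were apart for 3 members that were lower, Acat1, Acat2 and Sqle, and for 1 that was higher, Npc1, beside 6.1% and 9.17% of all genes. All 20 enzymes had a fold change below 0, with a median of -0.16 and against 49.4% of all genes. That count was 16 of 20 without oxaliplatin 4, 16 without paclitaxel 4, 16 with limma voom and 17 with library totals as the only scaling. In the same comparison all 16 neuron markers were below 0 (median -0.39, 8 called lower, beside 4.71% of all genes). Above 0 were all 14 macrophage markers (median 0.66, 6 called higher, beside 6.6% of all genes), all 10 fibroblast markers (0.75, 7 called) and all 14 Schwann cell markers (0.27, 0 called). The part of these cell types in the enzyme values was not tested.

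**Figure D3:**
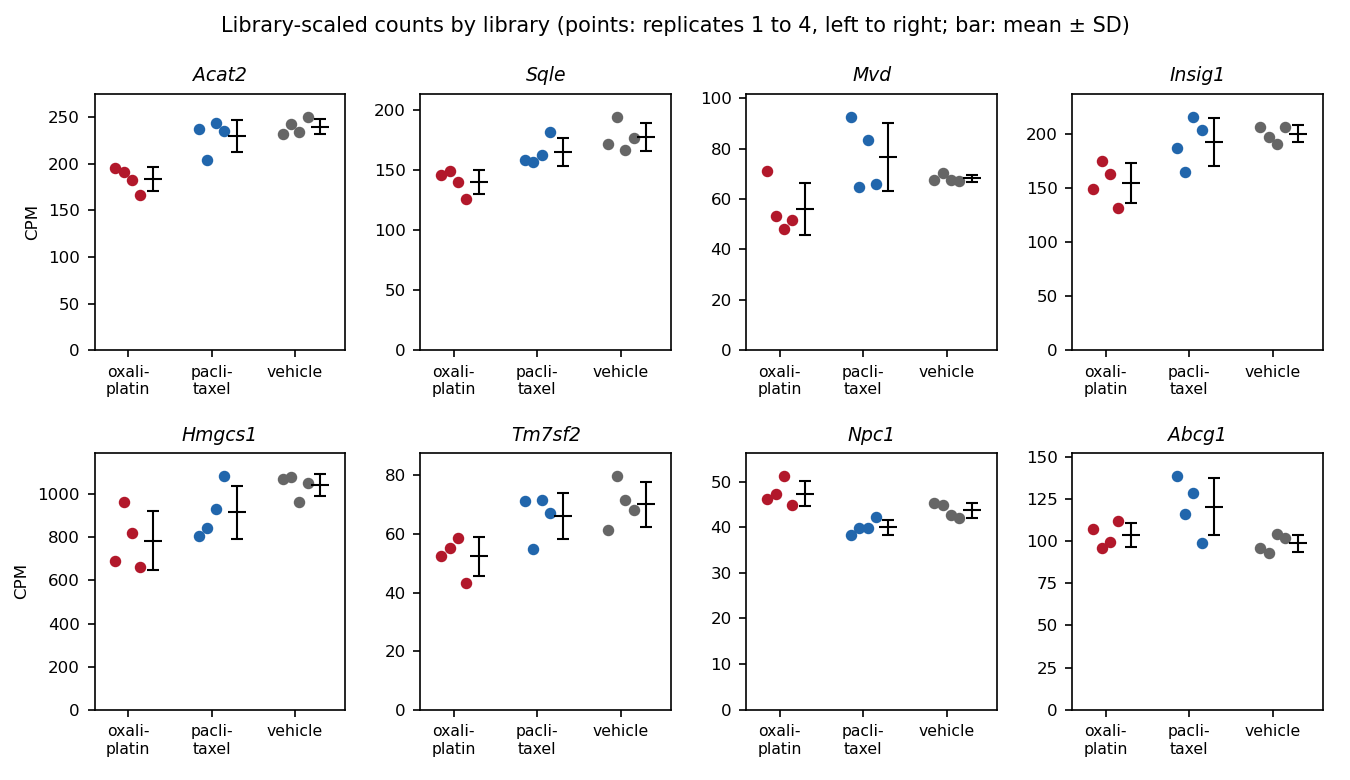
CPM of 8 members in every library, points being replicates 1 to 4 from left to right and bars mean ± SD (n = 4), on axes that start at 0. Oxaliplatin libraries lie below all others for Acat2 and Sqle, Mvd is widely spread in both drug groups, and Npc1 is higher with oxaliplatin than with paclitaxel in every library.

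Genes next to the sterol route were examined from lists. Of 14 genes of fatty acid synthesis, which SREBP factors also drive, 1 fell with oxaliplatin against vehicle, where 0.708% of all genes were called lower. It was Acss2, which makes cytosolic acetyl-CoA from acetate, with 124 ± 2.68 CPM with oxaliplatin and 151 ± 3.31 CPM with vehicle (SD, n = 4 each, log2 fold change -0.29 ± 0.06, adjusted p = 0.032, edgeR). Of that list, 13 of 14 genes had a fold change below 0, beside 48.3% of all genes, with a median of -0.17. With paclitaxel 0 of 14 passed, beside 0.12% of all genes called in either direction, and the median was -0.01. Between the drugs Acss2 (-0.36 ± 0.06), Mid1ip1, an activator of acetyl-CoA carboxylase (-0.33 ± 0.08), and Me1, malic enzyme (-0.27 ± 0.07), were called lower with oxaliplatin (adjusted p = 0.00538, 0.0179 and 0.0265), 3 of 14 where 4.71% of all genes were.

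Isoprenoid branches, the 11 genes that use farnesyl pyrophosphate for dolichol, ubiquinone and protein prenylation, had 0 calls against vehicle for either drug. Of all genes, 1.76% were called for oxaliplatin and 0.12% for paclitaxel, so 0 of 11 is near those shares. The medians were -0.09 for oxaliplatin and 0.03 for paclitaxel. Between the drugs 1 of the 11 was called lower with oxaliplatin, where 4.71% of all genes were. It was Nus1, a subunit of the enzyme that makes dolichol (-0.23 ± 0.07, adjusted p = 0.044, edgeR). Nus1 is uncertain, with a count that was not whole in 11 libraries. The 10 genes of SREBP processing and sterol-dependent degradation had 0 calls in any of the 3 comparisons, as did the 6 other LXR targets. Between the drugs 11.3% of all genes were called in either direction, so 0 calls in lists this short say little. Of 16 genes of sterol storage, hydroxylation and transfer 1 was called, and only between the drugs. This share was near the 6.6% of all genes called higher there. The gene was Lrp1, a lipoprotein receptor, with 291 ± 26.8 CPM with oxaliplatin and 189 ± 5.14 CPM with paclitaxel (0.63 ± 0.10, adjusted p = 0.00535, edgeR).

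Markers of cell types also differed in these comparisons. With oxaliplatin against vehicle, 15 of 16 neuron markers had a fold change below 0 (median -0.21), beside 48.3% of all genes. The neurofilament genes Nefl and Nefm were called lower (-0.67 ± 0.14 and -0.63 ± 0.15, adjusted p = 0.0359 and 0.049, edgeR), where 0.708% of all genes were. The 16 neuron markers together summed to 16732 to 21682 CPM with oxaliplatin, 23911 to 33232 CPM with paclitaxel and 23291 to 26618 CPM with vehicle. Myelinating Schwann cell markers, from cells that use much cholesterol, had 13 of 14 genes above 0 (median 0.13, 0 called), and summed to 14480 to 25041 CPM with oxaliplatin, 14619 to 16985 CPM with paclitaxel and 12005 to 20726 CPM with vehicle, so those groups overlapped. Satellite glia markers had a median of 0.03 with 0 called, and macrophage markers -0.17 with 0 called. Adipocyte markers, with 9 of 10 tested and all 9 above 0, summed to 82.8 to 189 CPM with oxaliplatin, 42.3 to 66.4 CPM with paclitaxel and 53.7 to 83.7 CPM with vehicle. Fabp4, Cidec and Adipoq were called higher (1.96 ± 0.40, 2.15 ± 0.47 and 2.43 ± 0.55, adjusted p = 0.032, 0.0363 and 0.049, edgeR), where 1.05% of all genes were.

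Erythroid, fibroblast and endothelium markers had medians of 1.20, 0.24 and 0.36 with oxaliplatin against vehicle, and 0 of them were called. Clock genes, which set a daily rhythm that sterol synthesis is known to follow in liver, had 7 of 15 called higher and 1 lower. Of all genes, 1.05% were called higher and 0.708% lower. The clock calls were led by Dbp at 1.81 ± 0.18, Nr1d1 at 1.97 ± 0.21, Per3 at 1.02 ± 0.12 and Tef at 0.53 ± 0.07 (adjusted p = 0.000355, 0.000578, 0.000891 and 0.00369, edgeR). Nr1d1 is uncertain, with a count that was not whole in 12 libraries. With paclitaxel, macrophage markers had a median of -0.84 with 2 called lower, where 0.038% of all genes were. These were Spi1 and Adgre1 (-0.77 ± 0.12 and -1.39 ± 0.22, adjusted p = 0.0132 and 0.0194, edgeR). For paclitaxel 0 clock genes were called, beside 0.12% of all genes in either direction. In oxaliplatin 1 to 4 the mean log2 deviation from vehicle was -0.24, -0.29, -0.37 and -0.07 for neuron markers, 0.0007, 0.62, 0.13 and -0.06 for Schwann cell markers, and -0.14, 0.11, 0.25 and -0.18 for satellite glia markers. Oxaliplatin 4, where the enzymes were lowest, thus had the neuron markers nearest to vehicle and the lowest Schwann cell and satellite glia markers of its group. Schwann cell markers were highest in oxaliplatin 2, where the enzymes were nearest to vehicle. Among vehicle libraries, the enzymes and the Schwann cell markers were both highest in vehicle 2 (0.12 and 0.34) and both lowest in vehicle 3 (-0.10 and -0.41). Not all libraries followed this order. Oxaliplatin 3 had lower enzymes than oxaliplatin 1 (-0.22 and -0.19) but higher Schwann cell markers (0.13 and 0.0007). Among paclitaxel libraries both lists were highest in paclitaxel 4 (0.04 and 0.08). There the enzymes were lowest in paclitaxel 2 (-0.15) and the Schwann cell markers in paclitaxel 1 (-0.28). The part of cell composition or time of day in the enzyme values was not tested.

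**Figure D4:**
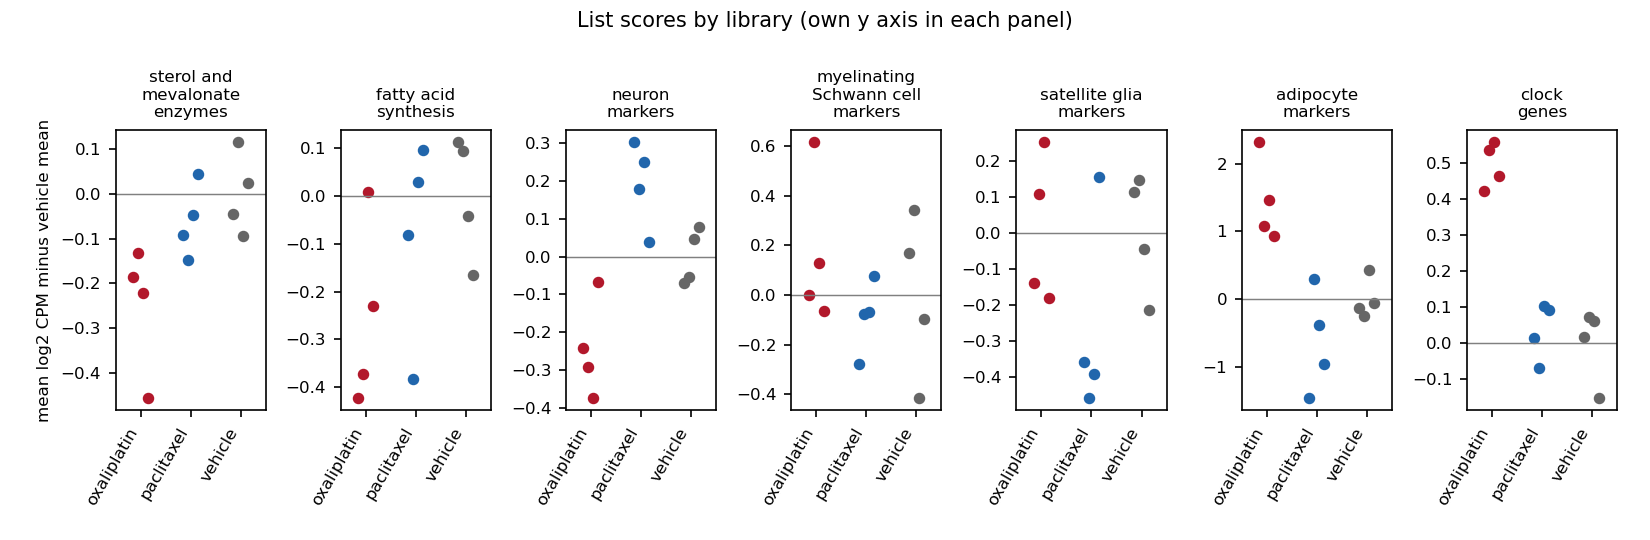
Mean log2 CPM of the genes of 7 lists in each library minus the vehicle mean, each panel with its own y axis. All oxaliplatin libraries lie below vehicle for the enzymes and above it for adipocyte markers and clock genes. Oxaliplatin 1, 2 and 3 lie below vehicle for neuron markers while oxaliplatin 4, at -0.07, does not, and Schwann cell markers overlap between groups.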

How the data were processed

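RNA of 12 libraries was measured, 4 per group, with groups and replicate numbers taken from the sample titles. Per the file headers, each deposited table holds an expected count per gene, an estimated count that need not be whole, and an FPKM value made by the authors. CASAVA 1.4 and Bowtie2 are the tools in the submitters' processing notes. The quantifier, genome build and strand setting are not given in the sources used here. Genes missing in a library's table count as 0 there.

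Estimated counts were rounded and fitted with edgeR 4.0.16 (R 4.3.3): default expression filter, which kept 15809 genes, TMM scaling, and a robust quasi-likelihood fit of 3 group means over 12 libraries. Tests were two-sided. Common dispersion had a square root of 0.159, and precision is that of 4 libraries per group. No 2 libraries of a group agreed within sampling noise (chi-square per gene 8.07 to 44.9). Fits were run on simulated counts with the same dispersion for all genes and changes larger than those of the members. That check does not bear on changes as small as theirs. Fractional counts in more than 6 libraries make a gene uncertain, since its reads may be shared.

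Alternatives were DESeq2 1.42.0, limma 3.58.1 (voom with quality weights, and limma-trend with pseudocounts of 1 and 0.1 on the log2 scale of FPKM), other scalings, no filter, only the groups compared, a replicate block, and each library left out.

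The members, gene lists and tests were chosen with earlier results of these data known. Every called member is described, and others by smallest p until 6 are described per comparison. Other members and the values named beside them were picked after the values were seen. Called genes of other lists are named, at most 4 a list, except that for oxaliplatin against paclitaxel the cell type lists are given by counts or left out, and clock genes are left out.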

Additional observations from a re-analysis of the deposited data

Results flagged for a closer look

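In groups of 4 libraries, a member's highest or lowest library was set against the other 3 by Dixon's ratio of the gap to the range. Of 96 sets (32 members in 3 groups) 6 passed its 95% critical value, and chance alone gives about 1 in 20.

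Cyp51 had 341.7 CPM in oxaliplatin 4, against 432.5 to 441.9 CPM in the other oxaliplatin libraries. Insig2 had 23.61 CPM in oxaliplatin 2, against 20.11 to 20.62 CPM in the others of its group. Nr1h3 had 14.69 CPM in paclitaxel 4, against 9.736 to 10.42 CPM, and Ebp had 24.52 CPM in paclitaxel 2, against 29.77 to 30.49 CPM. Among vehicle libraries Mvd had 70.21 CPM in vehicle 2, against 67.32 to 67.58 CPM, a small gap in a very narrow group, and Hsd17b7 had 31.24 CPM in vehicle 3, against 37.35 to 38.43 CPM. Counts of Hsd17b7 and Insig2 were not whole in 9 and 11 libraries, so their reads may be shared. What sets these libraries apart was not tested.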

How the results depend on the processing

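For oxaliplatin against vehicle, 2 members were called lower with edgeR. The number was 6 with DESeq2 and 1, Acat2, with limma on log2(FPKM + 1), limma on log2(FPKM + 0.1), library totals without TMM, no filter on low counts, and only the 2 groups compared. Leaving out each library gave 0 to 2. All genes called higher (166) and lower (112) became 427 and 453 with DESeq2, 308 and 258 with limma voom, and 102 and 59 with only the 2 groups compared. The lower genes numbered 70 with log2(FPKM + 1), 57 with log2(FPKM + 0.1) and 63 with library totals. Leaving out each library gave 36 to 198 higher and 13 to 159 lower, and a median over members of -0.22 to -0.13.

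For paclitaxel against vehicle, limma voom called 2 members higher and 1 lower, and leaving out each library 0 to 1 higher and 0 lower. All genes called higher (13) and lower (6) became 124 and 127 with DESeq2 and 1055 and 836 with limma voom, and 10 were lower with log2(FPKM + 1). Leaving out each library gave 10 to 921 higher and 0 to 710 lower, both highest without paclitaxel 4, and a median over members of -0.08 to -0.0047.

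For oxaliplatin against paclitaxel, the 1 member called higher became 2 with limma voom and 0 with no filter or only the 2 groups compared. The 2 called lower became 10 with DESeq2, 6 with limma voom, 5 with RLE size factors, and 1 with either FPKM scale, library totals, or only the 2 groups compared. Leaving out each library gave 0 to 2 higher and 0 to 6 lower. All genes called higher (1044) became 2418 with limma voom. Those lower (744) became 1454 with DESeq2, 2296 with limma voom, 282 with log2(FPKM + 1), 280 with log2(FPKM + 0.1), 293 with library totals and 259 with only the 2 groups compared. Leaving out each library gave 393 to 1786 higher and 174 to 1677 lower. The median over members was -0.0414 with library totals and -0.18 to -0.06 leaving out each library. The cause of these shifts was not tested.

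Over all genes tested, same-numbered libraries showed little common deviation (correlations of -0.23 to 0.16 over 12 pairs, 1 of them over 0.1). The labels give no pairing, and a pairing that touches few genes would not show in such correlations. With the replicate number as a block, oxaliplatin against vehicle had 0 members lower and 50 genes higher and 22 lower over the table, and oxaliplatin against paclitaxel 0 members higher, 1 lower, and 677 genes higher and 309 lower. With the block, paclitaxel against vehicle had 0 members called.

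No called member and no median over members reversed in any of the 21 other fits. Members with a sign change in at least 1 of them numbered 5 for oxaliplatin against vehicle, 9 for paclitaxel against vehicle and 10 between the drugs, each with a log2 fold change no further from 0 than 0.0869 in size and without a call. Counts that were not whole, the unstated strand of counting and the single vehicle group limit what the values mean.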
